A study of Leptinotarsa decemlineata with 61 samples.

Results

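Malpighian tubules are the excretory organs of insects. They are blind tubes that open into the gut at the junction of midgut and hindgut, and their cells move ions, water and metabolic waste out of the hemolymph into a primary urine that passes to the hindgut. In many beetles the far ends of the tubules are attached to the wall of the hindgut. The genes described here are those of the Colorado potato beetle, *Leptinotarsa decemlineata*, whose transcripts were most concentrated in dissected tubules. Mean TPM (a transcript abundance in which read pairs per gene are scaled by gene length and library total) was taken in 12 groups of dissected tissue, and a gene was kept if its tubule mean was at least 20 TPM and at least 4 times the mean of each of the other 11 groups. This gave 154 members among 15578 deposited genes (0.989%). The tubule level and its ratio to the other tissues chose the members, so both are given as a description and without a test.

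The data are 61 RNA-seq libraries of beetles of the E06 strain, fed on potato leaves, in 21 sample types. Tubules were dissected from adult females (replicates 1, 2 and 3) and adult males (replicates 3, 4 and 5), 7 days after emergence. The other dissected samples were hindgut, midgut and fat body of both adult sexes and of last-instar (L4) larvae on day 19 of development, L4 hemolymph, ovaries, testes, aedeagus and male genital ducts. Whole fertilized eggs (pools of 5) and whole L1, L2 and L3 larvae (pools of 3) were not used to choose the members, nor were female hindgut replicate 5 and yellow fat body replicate 4, both of which the study removed. Tissue libraries are of single individuals, no group carries a treatment or a genetic change, and larval tubules were not analysed here. Where a label's tissue field named another sample type than its title, the title was used. The libraries held 9913155 to 18579970 read pairs on the deposited genes, and the tubules 13502057 to 15386007. In a bulk library, fewer cells of a type and less RNA per cell cannot be told apart.

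The label of the gene set could not be checked against named tubule markers such as proton pump subunits or diuretic hormone receptors, because none of the gene identifiers matched the reference names used here. Members are therefore given by identifier, position and gene structure, in the coordinates of the deposited table.

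In the 6 tubule libraries the 154 members together took 30.6% to 46.4% of all TPM and 26.4% to 35.4% of the read pairs. Their tubule means ran from 22.8 to 97566 TPM with a median of 241.6 TPM. Of the 154, 26 had a mean of at least 1000 TPM, 100 lay between 100 and 1000 TPM and 28 lay under 100 TPM. Members made up 7 of the 10 and 18 of the 50 genes with the highest tubule mean. The plot of all members by library shows the bright tubule columns beside a weaker signal in most hindgut libraries and in whole larvae.

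**Figure D1:**
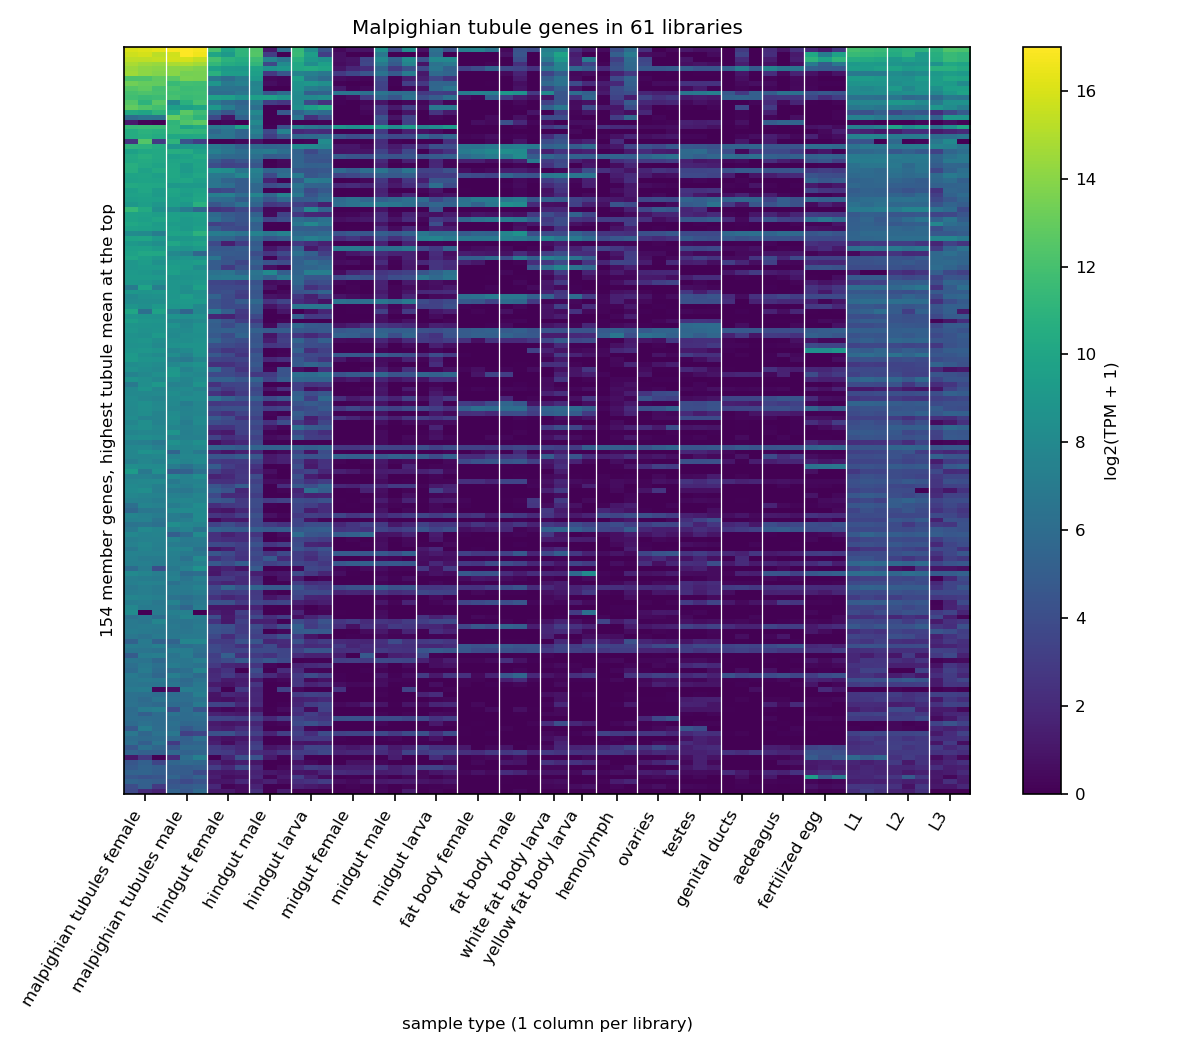
Level of the 154 members (rows, highest tubule mean at the top) in the 61 libraries (columns, grouped by sample type), as log2(TPM + 1). The 6 tubule columns at the left are the brightest by the choice of the members, and the whole L1, L2 and L3 larvae and the hindgut libraries other than male 4 and 5 follow.

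The 3 most abundant transcripts of the tubules came from 3 genes of the same build on 1 stretch of chromosome 1. LdNA_2241 (47670890 to 47672959), LdNA_2239 (47635657 to 47636755) and LdNA_2238 (47585047 to 47586049) lie on the minus strand, and each has a first exon of 97 bp and a second of 140 bp, 237 bp in all. No other deposited gene has this pair of exon lengths. Whether the 3 genes are near-identical copies that share reads was not tested, because no sequence was at hand, so the split of reads among them is uncertain.

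LdNA_2241 had 67168, 74918 and 85488 TPM in the female libraries and 114550, 131149 and 112121 TPM in the male libraries. LdNA_2239 had 52530, 62520 and 38523 TPM in females and 56162, 128854 and 102045 TPM in males. LdNA_2238 had 40552, 41059 and 44650 TPM in females and 57696, 61477 and 44268 TPM in males. All 3 were therefore at 38523 TPM or more in every tubule library, and the sexes overlapped for LdNA_2239 and LdNA_2238 but not for LdNA_2241.

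Together the 3 genes took 16.0% to 17.8% of female and 22.8% to 32.1% of male tubule TPM. They took 2.697% to 6.48% of the read pairs. TPM divides by the length of the gene, so the TPM share of so short a gene is several times its share of the reads, and a high share lowers the TPM of all other genes in the library.

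LdNA_2251 (chromosome 1, 47856418 to 47861444, 4 exons, 2334 bp) and LdNA_2254 (47918040 to 47929126, 3 exons, 3957 bp) lie at higher coordinates on the same strand, which is upstream in the direction of transcription, with means of 7827 and 26885 TPM. The 5 members stand within 344 kb, a stretch with 9 deposited genes from the first member to the last, and took 19.4% to 36.7% of tubule TPM. Not every gene there was a tubule gene. LdNA_2247 and LdNA_2248, genes of 2 exons with 267 and 264 bp between the members, had 1.79 and 0 TPM in tubules and their highest group means, 2901 and 1607 TPM, in adult midgut. LdNA_2255, of 2 exons and 213 bp just beyond the last member, had 12.4 TPM in tubules and 5935 TPM in L4 midgut.

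The next members by level were spread over other chromosomes. LdNA_13270 (chromosome 6, 41595041 to 41643301, 7 exons) had 12794 to 22620 TPM in the tubule libraries, and LdNA_11952 (chromosome 6, 1499753 to 1513324, 13 exons) had 11184 to 24308 TPM. LdNA_9201 (chromosome 4, 53528843 to 53550468, 9 exons) had a mean of 6063 TPM, LdNA_33954 (chromosome 18, 18452084 to 18459297, 4 exons) 4476 TPM and LdNA_17175 (chromosome 8, 37965975 to 37987001, 7 exons) 3908 TPM. The span of LdNA_33954 overlaps that of a gene on the other strand. The libraries do not keep strand, so reads of the pair cannot be told apart wherever exons overlap, which was not checked.

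The group with the second-highest mean was the hindgut for 112 of the 154 members, L4 hindgut for 72 and adult hindgut for 40. For the other 42 it was adult fat body (11 members), L4 fat body (8), adult midgut (8), testes (7), L4 midgut (4), aedeagus (2), ovaries (1) and hemolymph (1). The ratio of the tubule mean to that group had a median of 11.7, was at least 10 for 88 members and at least 50 for 6. The highest ratio, 152.2, belonged to LdNA_4109 (chromosome 2, 36291246 to 36296916, 2 exons), with 44.9 to 232.1 TPM in tubules and 0.840 TPM in adult hindgut. It was also the member nearest to absence elsewhere, as 1 member was under 1 TPM in all 11 other groups, and 23 were under 1 TPM in the 9 groups outside the hindgut. LdNA_4109 was singled out after its values were seen.

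The members just inside the ratio were LdNA_18215 (4.01), LdNA_25023 (4.05) and LdNA_856 (4.07), and just outside it stood LdNA_7132 (3.85), LdNA_9459 (3.83) and LdNA_23460 (3.80). At the level of 20 TPM, LdNA_4511 (22.8 TPM), LdNA_19176 (24.0 TPM) and LdNA_11913 (26.5 TPM) were the lowest members. LdNA_21132 (18.8 TPM), LdNA_9083 (18.5 TPM) and LdNA_24938 (18.3 TPM) fell short of it.

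**Figure D2:**
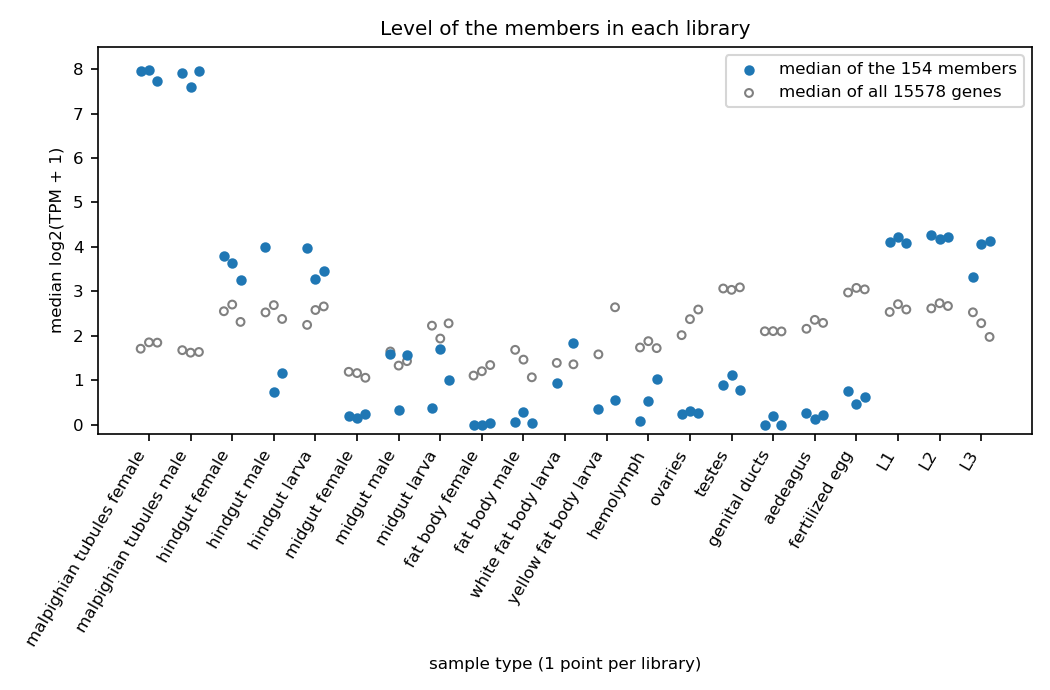
Median log2(TPM + 1) over the 154 members (filled) and over all 15578 genes (open) in each library, by sample type. The members sit between 7.60 and 7.99 in tubules by choice, between 3.32 and 4.28 in whole L1 to L3 larvae, and at 0.74 and 1.17 in male hindgut 4 and 5 against 3.9998 in male hindgut 3.

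Members differed more between single tubule libraries than other genes of at least 20 TPM did. Their coefficient of variation over the 6 libraries had a median of 30.1%, with quartiles of 19.3% and 48.5%, against 18.1% for the 3816 others, with quartiles of 13.2% and 25.5%. The rule used the mean of the same 6 libraries, so a gene high in only some of them could enter. The wider spread can thus be in part a result of the choice of the members. The steadiest were LdNA_9820 (chromosome 5, 4475936 to 4476436, a single exon; 3.10%, from 63.4 to 68.8 TPM), LdNA_9488 (8.43%) and LdNA_7383 (8.94%). In 62 members the highest library was less than 2 times the lowest on the scale of TPM + 1, and in 18 it was at least 10 times.

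LdNA_1670 (chromosome 1, 30200654 to 30203837, 3 exons, 555 bp) varied most, with a coefficient of 174.5%. It had 5557 TPM in female 2 and 2178 TPM in male 3, and 4.85, 6.64, 19.0 and 7.85 TPM in females 1 and 3 and males 4 and 5. Outside the tubules its L4 hindgut libraries were just as uneven, and 1 of the 3 carried nearly all of the L4 hindgut mean of 98.0 TPM.

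In all, 4 members were under 1 TPM in at least 1 tubule library, 2.60% of the members beside 1.47% of the other genes of at least 20 TPM. Such genes could enter through the libraries in which they were high. LdNA_2947 (chromosome 1, 72452876 to 72476066, 7 exons) was listed at 0 in female 2 and male 5 and had 132.1 to 294.6 TPM in the other 4. LdNA_15793 had 0.208 TPM in female 3, 0.724 TPM in male 3 and 120.6 to 149.7 TPM in the other 4. Neither split followed sex, and the libraries that were low differed from gene to gene. The other 2 members were LdNA_5695, from 0 to 159.3 TPM, and LdNA_21131, described with the sexes. LdNA_2947 and LdNA_15793 were chosen after their values were seen.

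Female and male tubules were compared with limma on log2(TPM + 1) over 9325 genes, 3 libraries against 3. The rule used the mean over both sexes and not their difference, but a gene higher in 1 sex could enter through that sex. At least LdNA_21131, LdNA_18215 and LdNA_22754 met the rule only through 1 sex. The members' shares below are therefore in part a result of the choice. Of the 154 members, 4 were higher in females (2.60%) and 3 in males (1.95%), beside 0.257% and 0.139% of all genes tested. The members' median difference was 0.10 (female minus male), beside 0.11 over all genes. Median-of-ratios scaling brought the median of all genes to -0.00067 and that of the members to -0.03. After it, 3 members were higher in females (1.95%) and 2 in males (1.30%), beside 0.172% and 0.107% of all genes. Without regard to the test, 33 members had every female library above every male one and 18 the reverse, beside 10.4% and 4.06% of all genes.

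LdNA_21131 (chromosome 10, 47696888 to 47710073, 6 exons, 2287 bp) was abundant in male and nearly absent from female tubules. It had 1.30, 0.200 and 0.0826 TPM in females and 2183, 5226 and 6583 TPM in males. The groups did not overlap, and the difference was -11.52 ± 0.47 on the log2(TPM + 1) scale (SE, limma adjusted p = 0.000324). Of its other libraries, the 3 of aedeagus had 29.6 to 43.8 TPM, male hindgut 3 had 251.3 TPM and male hindguts 4 and 5 had 0 and 0.0883 TPM. The next deposited gene, LdNA_21132, which missed the level of the rule, had 0 TPM in the females and 17.3, 40.4 and 55.3 TPM in the males. LdNA_21131 met the level of the rule through its male libraries alone, so its sex difference is in part a result of the choice.

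LdNA_2417 (chromosome 1, 53892427 to 53897510, 3 exons, 619 bp) had 64.5, 94.0 and 86.1 TPM in females and 8303, 4148 and 2129 TPM in males. No female library overlapped a male one, and the difference was -5.68 ± 0.46 (SE, limma adjusted p = 0.00554). Its span overlaps that of another deposited gene on the same strand, and whether exons overlap was not checked, so its count may be uncertain. LdNA_22754 (chromosome 11, 39551857 to 39558293) had 314.1 ± 13.6 TPM in females and 551.4 ± 18.8 TPM in males (SD, n = 3 each), a difference of -0.81 ± 0.11 (SE, limma adjusted p = 0.0473). Its ratio to adult midgut was 5.06, and its female mean alone was under 4 times the adult midgut mean. It thus met the ratio through its male libraries, and its sex difference is in part a result of the choice.

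LdNA_18215 (chromosome 9, 5934849 to 5947126, 8 exons) had 7585, 5087 and 3677 TPM in females and 755.5, 780.5 and 1008 TPM in males, a difference of 2.63 ± 0.28 (SE, limma adjusted p = 0.0174). LdNA_2772 (chromosome 1, 67813341 to 67835219, 10 exons) had 2133, 1967 and 1379 TPM in females and 455.8, 477.9 and 583.0 TPM in males, a difference of 1.83 ± 0.20 (SE, limma adjusted p = 0.0196). In both genes the lowest female library was more than 2 times the highest male one. LdNA_18215 met the ratio of the rule (4.01, to L4 hindgut) only through its female libraries, as its male mean was 848.1 TPM. Its sex difference is thus in part a result of the choice. LdNA_9201 had 8733 ± 1368 TPM in females and 3392 ± 458.5 TPM in males (SD, n = 3 each), and LdNA_9061 (chromosome 4, 48487935 to 48493424) 1143 ± 118.2 and 571.1 ± 24.8 TPM. Their differences were 1.36 ± 0.18 and 0.996 ± 0.13 (SE), with limma adjusted p of 0.0403 and 0.0378.

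These calls differ in how far they rest on single libraries. With each of the 6 libraries left out in turn, LdNA_21131 and LdNA_2417 kept adjusted p (limma) of at most 0.00824 and 0.0471. LdNA_18215 and LdNA_2772 missed the threshold without female 2, male 3 or male 4, with adjusted p up to 0.0955 and 0.0970. LdNA_9201, LdNA_9061 and LdNA_22754 missed it without any 1 of the 6, with adjusted p of up to 0.0970, 0.116 and 0.171. The number of members higher in females was then 0 without female 2, male 3 or male 4, beside 0.231%, 0.229% and 0.131% of all genes. It was 2, 2 and 3 (1.30%, 1.30% and 1.95%) without female 1, female 3 and male 5, beside 0.348%, 0.175% and 0.217%. The p-values measure the spread between individuals, 3 in each sex.

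The sex differences of the 7 genes were set beside those in other adult tissues in a limma fit of tubules, midgut, hindgut and fat body (23 libraries, 11908 genes), chosen after the data were seen. The genes were picked for their difference in tubules, and the rule had held their levels in the other tissues to at most 0.25 of the tubule level, so the contrast between tissues is a description. For LdNA_2772 the female minus male difference was 1.83 in tubules, -1.09 in midgut, 0.95 in hindgut and -0.54 in fat body, so that the tubule difference lay 2.06 above the mean of the other 3. For LdNA_21131 the differences were -11.52 in tubules, -2.28 in midgut, -2.57 in hindgut and -1.80 in fat body. In that fit, which pools the spread over tissues, the tubule difference itself passed the threshold for LdNA_21131, LdNA_2772 and LdNA_2417 (limma adjusted p = 0.000517, 0.00124 and 0.04995) and not for the other 4. In hindgut LdNA_18215 and LdNA_9061 passed it, with female minus male differences of 6.0 ± 1.19 and 1.68 ± 0.38 (SE, limma adjusted p = 0.0202 and 0.0459), while in tubules they did not (limma adjusted p = 0.557 and 0.349). Male hindguts 4 and 5, low in most members, are among the 5 libraries of that tissue.

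**Figure D3:**
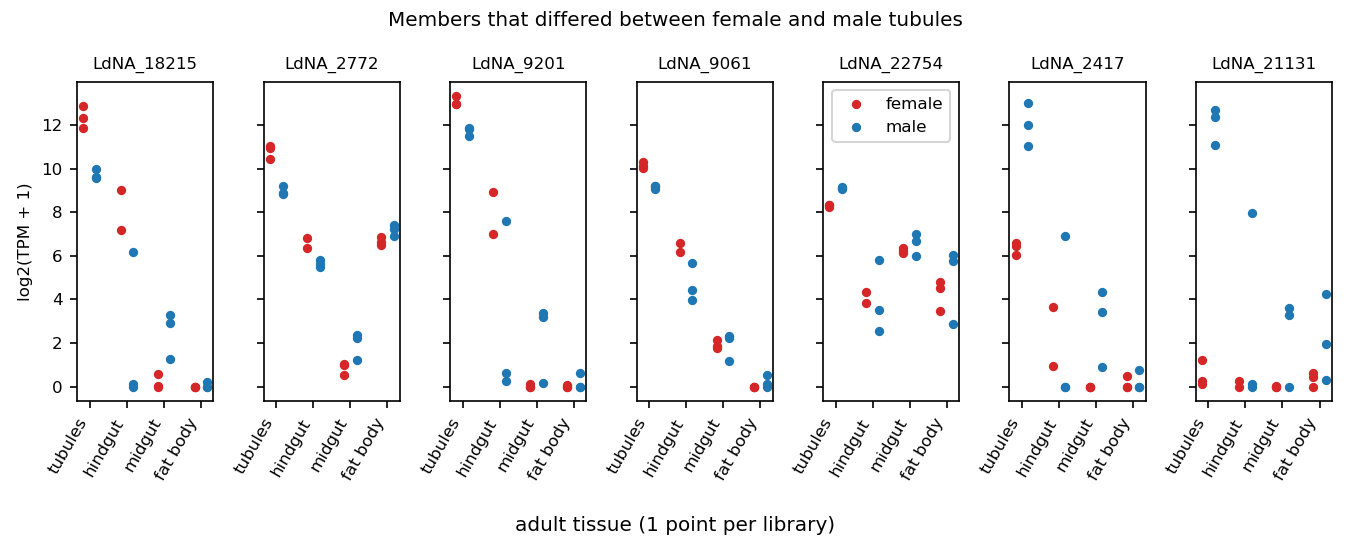
The 7 members that passed the test between female and male tubules, as log2(TPM + 1) in 4 adult tissues, with 1 point per library (red female, blue male; female hindgut has 2 libraries). Female and male tubule points do not overlap in any of the 7 genes, and male hindgut shows a single library at 251.3 TPM for LdNA_21131.

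The hindgut was the tissue in which most members came second, and its libraries were not alike. The median of log2(TPM + 1) over the 154 members was 3.79 and 3.63 in female hindguts 1 and 4, 3.9998, 0.74 and 1.17 in male hindguts 3, 4 and 5, and 3.98, 3.28 and 3.45 in L4 hindguts 1, 4 and 5. Male hindguts 4 and 5 thus held the members at a small part of the level of male hindgut 3, with 68 and 80 members above 1 TPM against 151. Over all genes the median was 2.53, 2.69 and 2.38 in male hindguts 3, 4 and 5. How much tubule tissue each hindgut sample held was not tested.

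LdNA_2241 shows the same in 1 gene. It had 4455 and 914.5 TPM in female hindguts 1 and 4, 5348, 1.24 and 74.6 TPM in male hindguts 3, 4 and 5, and 2622, 328.8 and 20.5 TPM in L4 hindguts 1, 4 and 5. LdNA_13270 was steadier, at 528.7 to 938.0 TPM in female 1 and 4 and male 3, at 412.9 and 520.4 TPM in males 4 and 5 and at 996.6 to 1363 TPM in L4. The gap between male hindgut 3 and male hindguts 4 and 5 was thus wide for the first gene and narrow for the second.

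Relative to its tubule mean, a member stood in male hindgut 3 at a median of -3.91 on the log2(TPM + 1) scale, with quartiles of -4.41 and -3.33. In male hindgut 4 the median was -6.76 with quartiles of -7.96 and -4.76. The quartiles were 1.08 apart in the first and 3.20 apart in the second, and between 1.51 and 2.68 apart in the L4 hindguts. Female hindgut 5, which the rule did not use, had a median of -4.82 and quartiles 1.42 apart. Its members' median level, 3.25, was below those of its replicates in TPM and between them after median-of-ratios scaling (3.33 against 3.20 and 3.42), and the members took 1.24% of its TPM against 2.05% and 1.04%.

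**Figure D4:**
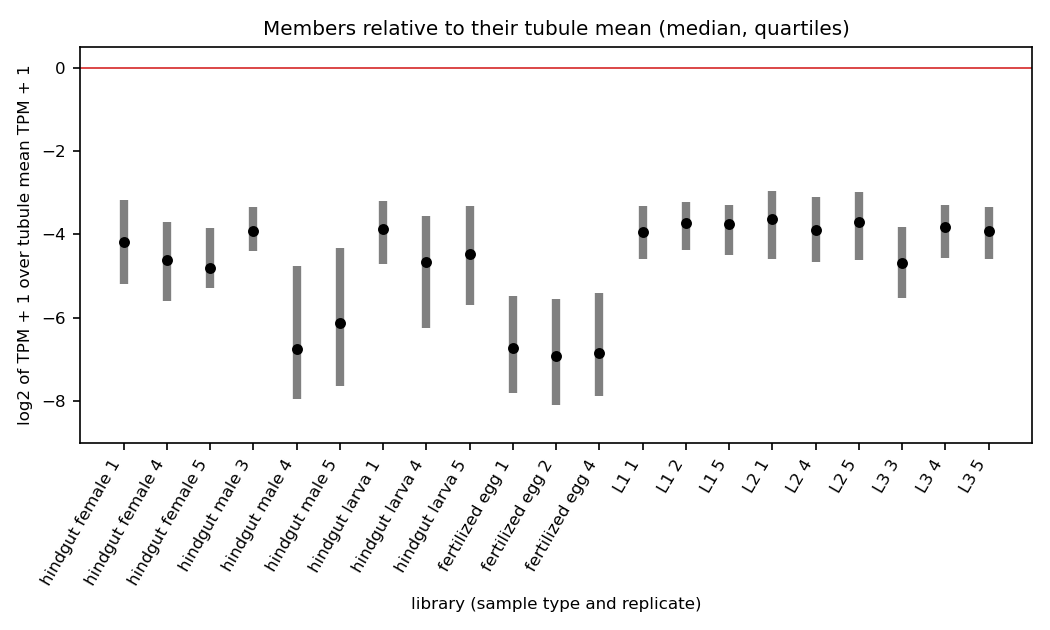
Level of the 154 members in each hindgut and whole-body library relative to their mean over the 6 tubule libraries, as a log2 ratio of TPM + 1 (point: median, bar: quartiles, red line: the tubule mean). Male hindguts 4 and 5 and the 3 egg libraries lie at medians between -6.92 and -6.12, and the larvae lie between -4.69 and -3.63.

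L4 hindgut was compared with adult hindgut (limma on log2(TPM + 1), 3 libraries against the mean of 2 female and 3 male ones, 11041 genes). The rule had used both hindgut means as limits, each at most 0.25 of the tubule mean, so the counts below describe the members and are not read against those of all genes. Of 150 members tested, 11 were higher in L4 (7.33%) and 8 in adults (5.33%), beside 2.98% and 4.47% of all genes. The members' median difference was 0.52 (L4 minus adult), beside -0.09 over all genes. Libraries did not overlap for 22 members higher in L4 and 10 higher in adults, beside 5.72% and 12% of all genes. The count higher in L4 was set by single libraries. It was 45 without male hindgut 3 (30.4%, beside 3.13% of all genes) and 7 without male hindgut 4 (4.67%, beside 3.24%). Without each of the 6 others it was between 3 and 6, beside 1.28% to 4.19% of all genes. The count higher in adults was 13 without male hindgut 4 (8.67%, beside 5.25% of all genes). It was 3 and 5 without L4 hindguts 4 and 5 (2% and 3.36%), beside 1.54% and 1.81% of all genes. Without each of the rest it was 6 to 9 (4.03% to 6.08%), beside 2.22% to 4.197% of all genes.

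LdNA_15833 (chromosome 7, 58614713 to 58637227, 3 exons) was an adult gene in this tissue. It had 0.0904 to 0.146 TPM in L4 hindgut and 9.22, 13.7, 15.2, 24.5 and 12.95 TPM in the 5 adult hindguts, a difference of -3.73 ± 0.28 (SE, limma adjusted p = 0.000823). Adult and L4 values did not overlap, and males 4 and 5 were as high as the rest. LdNA_21293 (chromosome 10, 51402561 to 51406953, 2 exons) had 1.56 ± 0.325 TPM in L4 (SD, n = 3) and 13.2 ± 4.33 TPM in adults (SD, n = 5), and LdNA_2887 (chromosome 1, 70564952 to 70588719, 6 exons) 22.1 ± 1.94 and 193.9 ± 150.5 TPM. Their differences were -2.50 ± 0.22 and -2.82 ± 0.42 (SE, limma adjusted p = 0.00109 and 0.00862). LdNA_9087 (chromosome 4, 49290760 to 49292258, 2 exons, 228 bp) and LdNA_18438 (chromosome 9, 13712165 to 13732199) were also higher in adults, with differences of -4.09 ± 0.84 and -2.11 ± 0.42 (SE, limma adjusted p = 0.0271 and 0.0236). The first missed the threshold without any 1 of female hindguts 1 and 4 or L4 hindguts 1, 4 and 5 (limma adjusted p up to 0.0998), and the second without female hindgut 1, L4 hindgut 4 or L4 hindgut 5 (up to 0.0699).

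In the other direction, LdNA_15783 (chromosome 7, 57046213 to 57069146, 4 exons) had 75.1, 64.5 and 83.9 TPM in L4 hindgut and 5.70 to 19.2 TPM in adult hindgut, a difference of 2.66 ± 0.36 (SE, limma adjusted p = 0.00562). LdNA_17644 (chromosome 8, 53032847 to 53037207, 2 exons) had 13.0, 18.5 and 9.96 TPM in L4 and 0.111 to 2.33 TPM in adults, a difference of 2.94 ± 0.42 (SE, limma adjusted p = 0.00721). Both kept the threshold without each library in turn. LdNA_4598, LdNA_11233 and LdNA_19425, with differences of 3.94 ± 0.92, 3.45 ± 0.64 and 3.21 ± 0.72 (SE, limma adjusted p = 0.043, 0.0197 and 0.0374), missed it without 1 of several libraries. LdNA_4598 kept it only without L4 hindgut 1 or male hindgut 3, LdNA_19425 only without male hindgut 3, and LdNA_11233 missed it without female hindgut 4 or any L4 hindgut, with limma adjusted p up to 0.136, 0.107 and 0.0629. LdNA_19425 overlaps a gene on the other strand.

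The libraries of whole eggs and larvae were not used to choose the members. The rule did limit each member's ovary mean relative to its tubule mean. Whether this limit also lowered the members' egg levels was not tested, so their egg shares are a description. The median of log2(TPM + 1) over the members was 0.47 to 0.76 in eggs, 4.09 to 4.23 in L1, 4.19 to 4.28 in L2 and 3.32, 4.07 and 4.14 in L3 larvae. The members took 0.234% to 0.537% of egg TPM, 1.35% to 1.53% in L1, 1.15% to 1.22% in L2 and 1.32% to 2.24% in L3. Above 1 TPM in all 9 larval libraries were 125 members, 81.2% beside 55.5% of all deposited genes. In all 3 egg libraries 60 members were above 1 TPM, 39.0% beside 65.8% of all genes, and 78 were under it, 50.6% beside 24.8%. Under 1 TPM in every egg library and above it in every larval one were 57 members, 37.0% beside 2.88% of all genes.

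L1 larvae were compared with eggs in a limma fit of the 4 whole-body stages (12 libraries, 12402 genes). Because the rule limited the ovary level, the counts below describe the members and are not read against those of all genes. Of 153 members tested, 119 were higher in L1 (77.8%) and 8 in eggs (5.23%), beside 17.3% and 50.1% of all genes. The median difference of the members was 2.81 (L1 minus eggs), beside -0.59 over all genes. Eggs and L1 did not overlap for 122 members higher in L1 and 10 higher in eggs, beside 20.3% and 56.1% of all genes. The excess of genes higher in eggs depends on the scaling. After median-of-ratios scaling 129 members were higher in L1 (84.3%) and 4 in eggs (2.61%), beside 28.5% and 28.6% of all genes. Between 118 and 122 members were higher in L1 and 7 to 9 in eggs with each library left out in turn. In those fits 15.7% to 18.7% of all genes were higher in L1 and 43.6% to 53.7% in eggs.

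LdNA_2241 had 2.79, 1.10 and 5.68 TPM in eggs and 4045, 3262 and 2895 TPM in L1 larvae, a difference of 9.81 ± 0.41 on the log2(TPM + 1) scale (SE, limma adjusted p = 2.1e-08). LdNA_2251 had at most 0.158 TPM in eggs and 526.5 to 653.7 TPM in L1, a difference of 9.15 ± 0.24 (SE, limma adjusted p = 1.46e-09). LdNA_9201, LdNA_33954 and LdNA_15570 (chromosome 7, 50698830 to 50744374, 8 exons) went from at most 0.226 TPM in eggs to means of 433.4, 277.3 and 221.1 TPM in L1, with differences of 8.58 ± 0.29, 8.01 ± 0.38 and 7.68 ± 0.41 (SE, limma adjusted p at most 1.19e-07). These values near 0 rest on few read pairs, and the added 1 TPM understates such differences.

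The genes with the same exon lengths as LdNA_2241 were not low in eggs. LdNA_2238 had 2152, 905.4 and 2238 TPM in eggs and 1169 to 1457 TPM in L1, a difference of -0.30 ± 0.34 (SE, limma adjusted p = 0.451). LdNA_2239 had 1129, 142.4 and 831.4 TPM in eggs and 2194 to 2782 TPM in L1, a difference of 2.27 ± 0.68 (SE, limma adjusted p = 0.0126). These were the most abundant members in eggs, and with LdNA_2241, LdNA_13270 and LdNA_2251 they were also the most abundant in larvae.

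LdNA_22685 (chromosome 11, 37460054 to 37479242, 6 exons) was the third most abundant member in eggs. It had 354.9, 341.3 and 486.8 TPM there, close to its tubule range of 202.2 to 492.4 TPM, and 34.5, 29.5 and 45.7 TPM in L1, a difference of -3.40 ± 0.26 (SE, limma adjusted p = 1.47e-06). LdNA_18342 (chromosome 9, 10235199 to 10252203, 4 exons) had 685.8, 24.9 and 129.5 TPM in eggs, a wide spread, 2.68 to 3.85 TPM in L1 and only 18.03 to 45.4 TPM in tubules. Its difference was -5.03 ± 0.97 (SE, limma adjusted p = 0.000971), and it overlaps a gene on the other strand. LdNA_22459 (92.9 ± 12.1 TPM in eggs, 17.55 ± 1.39 TPM in L1), LdNA_7723 (17.1 ± 1.60 and 5.02 ± 0.251 TPM) and LdNA_11609 (12.3 ± 4.85 and 3.88 ± 0.867 TPM; SD, n = 3 each) were also higher in eggs, with limma adjusted p of 0.00107, 9.6e-06 and 0.00641.

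**Figure D5:**
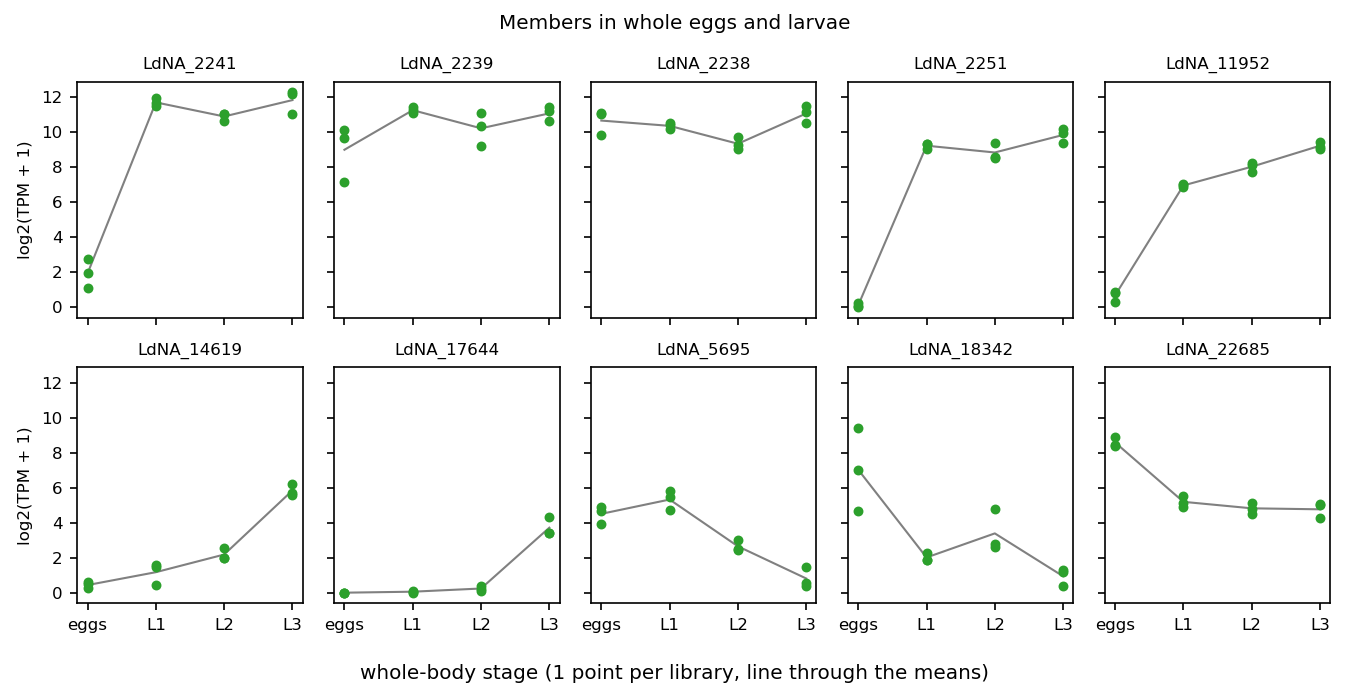
Members in whole eggs and whole L1, L2 and L3 larvae, as log2(TPM + 1), with 1 point per library and a line through the stage means. LdNA_2241 and LdNA_2251 are near 0 to 6 TPM in eggs and above 100 TPM in every larval library, while LdNA_2238 and LdNA_2239 are above 140 TPM in every egg library.

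L3 larvae were compared with L1 larvae in the same fit, which shares the L1 libraries with the egg comparison. Of 153 members, 22 were higher in L3 (14.4%) and 43 in L1 (28.1%), beside 9.77% and 32.8% of all genes. The members' median difference was -0.41 (L3 minus L1), beside -0.30 over all genes. L3 and L1 did not overlap for 28 members higher in L3 and 53 higher in L1, beside 11% and 39.4% of all genes. Median-of-ratios scaling, which moved the median of all genes to -0.02, turned the split to 30 higher in L3 (19.6%) and 24 in L1 (15.7%), beside 21.8% and 22.7% of all genes. L3 replicate 3 stood apart with the lowest median of the 9 larval libraries, and without it 35 members were higher in L3 (22.9%) and 40 in L1 (26.1%), beside 8.47% and 36.8% of all genes.

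LdNA_14619 (chromosome 7, 21361568 to 21369588, 2 exons) had 0.374, 1.80 and 1.995 TPM in L1 and 52.3, 73.4 and 48.2 TPM in L3, a difference of 4.68 ± 0.31 (SE, limma adjusted p = 2.54e-06). LdNA_17644, one of the members higher in L4 than in adult hindgut, had at most 0.0796 TPM in L1, at most 0.309 TPM in L2 and 9.75, 19.1 and 9.70 TPM in L3, a difference of 3.67 ± 0.23 (SE, limma adjusted p = 1.54e-06). LdNA_11952, sixth in the tubules, had 114.3 to 130.1 TPM in L1, 212.8 to 296.2 TPM in L2 and 533.9 to 703.3 TPM in L3, a difference of 2.28 ± 0.19 (SE, limma adjusted p = 9.31e-06). In all 3 genes every L3 library lay above every L1 library. LdNA_20533 and LdNA_23799, both overlapping a gene on the other strand, were also higher in L3, by 3.65 ± 0.43 and 1.94 ± 0.26 (SE, limma adjusted p = 7.8e-05 and 0.000155).

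LdNA_5695 (chromosome 3, 9829613 to 9842200, 4 exons), one of the members so uneven in adult tubules, had 14.6 to 28.7 TPM in eggs, 25.6 to 55.5 TPM in L1, 4.47 to 7.11 TPM in L2 and 0.323 to 1.80 TPM in L3. Its difference between L3 and L1 was -4.53 ± 0.37 (SE, limma adjusted p = 9.31e-06). LdNA_22188 (chromosome 11, 21985646 to 22054919, 18 exons) had 24.3 to 33.6 TPM in L1 and 0.171, 0.983 and 3.599 TPM in L3, a difference of -3.80 ± 0.39 (SE, limma adjusted p = 3.12e-05). LdNA_21293, LdNA_10717 and LdNA_16323 were higher in L1 too, with differences of -3.13, -2.80 and -2.68 and limma adjusted p of 0.00317, 0.000596 and 0.00135. Among the most abundant members, LdNA_13270 was higher in L3, by 1.10 ± 0.18 (SE, limma adjusted p = 0.00057), and LdNA_2241 had a difference of 0.13 ± 0.41 (SE, limma adjusted p = 0.83).

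In all 9 larval libraries 2 members were under 1 TPM. These were LdNA_21131, at most 0.566 TPM in larvae, and LdNA_15793, which was also uneven between adult tubules. Yellow fat body 4, which the rule did not use, had a members' median of 0.55, between the lowest (0.36) and the highest (1.83) of the 3 L4 fat body samples kept.

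The members were longer than the deposited genes in general. Their median length was 1659.5 bp with 5 exons, beside 1209 bp and 4 exons for all 15578 genes and 1426.5 bp and 5 exons for the 3816 other genes of at least 20 TPM in tubules. Single-exon genes were 5 of the 154 (3.25%), beside 17.04% and 7.26%. The longest members were LdNA_19402 (5647 bp, 22 exons), LdNA_25037 (5283 bp) and LdNA_11737 (5200 bp).

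Members lay on all 18 chromosomes, from 0.454% of the deposited genes of chromosome 12 to 1.60% of those of chromosome 18. Of the 154, 30 (19.5%) stood directly beside another member in the deposited gene order, in 14 runs of 10.1 to 156.8 kb. All 14 runs kept to 1 strand, and in 10 of them the members had the same number of exons. The matching shares over all deposited genes were not computed. These counts are therefore a description and are not read as a trait of the members. Neighbouring copies of a gene can share reads, which was not tested here.

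The longest runs had 3 members each. On chromosome 4, LdNA_7990, LdNA_7991 and LdNA_7993 (12866317 to 12911665, plus strand), each of 2 exons and 1905, 1724 and 1911 bp, had tubule means of 264.8, 66.6 and 747.2 TPM. All 3 were under 1 TPM in the mean of eggs and had their next-highest group in L4 hindgut, at 5.09 to 30.7 TPM. On chromosome 16, LdNA_30965, LdNA_30966 and LdNA_30967 (19664094 to 19820849, plus strand) had 207.6, 134.5 and 322.1 TPM in tubules and mixed structures of 1, 9 and 1 exons. With LdNA_30951 (chromosome 16, 19368650 to 19369222, 349.4 TPM), which overlaps a gene on the same strand, LdNA_30967 and LdNA_30965 were the most abundant single-exon members.

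The pairs show that neighbours need not share a level or a stage. LdNA_14619 and LdNA_14620 (chromosome 7, plus strand) had similar tubule means of 597.3 and 588.2 TPM, but 1.39 and 21.2 TPM in L1 and 2 and 9 exons. LdNA_15418 and LdNA_15420 (chromosome 7), each of 11 exons and 3915 and 4026 bp, had 1067 and 852.2 TPM in tubules and 93.0 and 35.4 TPM in L1. LdNA_4707 and LdNA_4708 (chromosome 2), each of 10 exons, had 62.6 and 296.9 TPM in tubules, with testes second for the first and adult hindgut second for the second. The pairs were taken from the list of runs after their values were seen.

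Outside the members, the genes most like them over the 47 dissected libraries (Pearson r of log2(TPM + 1) with the members' median, a description over libraries that share tissues) were LdNA_17692 (0.950), LdNA_8689 (0.939), LdNA_20380 (0.937), LdNA_20378 (0.937) and LdNA_29228 (0.929). The first 4 had tubule means of 3.93 to 16.4 TPM, under the level of the rule. LdNA_29228 had 133.6 TPM in tubules and 50.5 TPM in L4 hindgut, a ratio of 2.64.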

How the data were processed

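The authors trimmed paired reads of poly(A)-selected, non-directional libraries with Trimmomatic, mapped them (STAR), assigned read pairs to genes with featureCounts of Subread 2.0.5 and deposited TPM values for genes above 1 TPM in at least 2 libraries. Positions are as deposited, and the sources used here give no build name. No per-sample column was left unmapped (0). TPM times gene length gave whole read pairs within 0.01 for 100% of values above 0, and 1 read pair at the median length of 1209 bp was worth 0.0499 to 0.122 TPM. Of 59 replicate pairs, 0 were identical.

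The members, gene lists and tests were chosen with earlier results of these data known. Comparisons used limma 3.58.1 (trend, R 4.3.3) on log2(TPM + 1) for genes above 1 TPM in at least 2 libraries of the fit, 2-sided, with Benjamini-Hochberg adjustment over all genes tested and a threshold of 0.05. The test was run on simulated data with known changes. Their spread between replicates was set and not taken from these data, so this gives no error rate for them. TPM is not a count, so limma-voom on the recovered read pairs was an alternative only. Named members are the 10 highest in tubules, up to 5 in each direction of each comparison with the largest difference past the threshold and no overlap, and those at the thresholds, in the longest runs, highest in eggs and larvae, most and least variable, longest or most abundant with a single exon. Alternatives changed the pseudocount to 0.1, the filter, the scaling, the libraries in the fit and the replicate block. The deviations of same-numbered libraries of the groups compared had correlations from -0.140 to 0.181. In hindgut, female 4 with male 4 had 0.181 and L4 5 with male 5 had 0.118. The whole-body and tubule pairs had -0.086 to 0.058. Across the 4 adult tissues of the sex fit, 7 of 18 same-numbered pairs of 1 sex had a correlation over 0.1 (from -0.205 to 0.292). The numbers were not taken as pairs, and whether 1 animal gave several tissues is not known here, so that fit treats its libraries as independent. Lists of transporter and receptor genes were not used, because 0 gene identifiers matched the 20134 reference genes. Python 3.11.15, numpy 2.4.6 and pandas 2.3.3 were used.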

Additional observations from a re-analysis of the deposited data

Results flagged for a closer look

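In adult fat body, male replicate 5 had a members' median of log2(TPM + 1) of 0.27, farther above the other 5 libraries than the limit for 6 values allows (0.753 of the range, limit 0.625). Of 43 groups of values examined this was 1, and chance alone sets off about 1 in 20.

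The sex difference of LdNA_21131 in tubules lay below the mean of midgut, hindgut and fat body by -9.30 on the log2 scale, and that of LdNA_2772 above it by 2.06, the values by which the sex difference appeared to differ between tissues. Both genes had been picked for their difference in tubules, and the rule limited their level elsewhere, so these values are given without a test.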

How the results depend on the processing

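In female against male tubules the number of members higher in females was 0 with no filter on low values, beside 0.0642% of all genes. It was 2 (1.30%) with limma-voom on recovered read pairs, beside 0.107%, and 0 to 3 with 1 library left out, beside 0.131% to 0.348%. The number higher in males was 1 (0.649%) with limma-voom, beside 0.0322% of all genes, and 5 (3.25%) in a fit of all sample types, beside 0.335%. With 1 library left out it was 2 to 4, beside 0.0656% to 0.478%. In L1 against eggs, 4 members (2.61%) were higher in eggs after median-of-ratios scaling and 5 (3.25%) in the fit of all sample types. The shares of all genes were 28.6% and 38.0%. In L3 against L1, 9 members (5.84%) were higher in L3 in the fit of all sample types, beside 6.57% of all genes. With 1 library left out, 16 to 35 were higher in L3 (10.5% to 22.9%), beside 7.46% to 17.3%. Higher in L1 were 24 (15.7%) after median-of-ratios scaling, beside 22.7%. With 1 library left out, 35 to 56 were higher in L1 (22.9% to 36.6%), beside 26.5% to 36.8%. In L4 against adult hindgut, 6 members were higher in L4 with a pseudocount of 0.1, beside 2.77% of all genes, and 3 (1.95%) with no filter, beside 1.31%. The fit of all sample types gave 42 (27.3%), beside 4.57%, and fits with 1 library left out 3 to 45 (2.01% to 30.4%), beside 1.28% to 4.19%. Higher in adults were 5 (3.25%) with no filter, beside 2.00%, and 20 (13.0%) in the fit of all sample types, beside 6.56%. With 1 library left out, 3 to 13 were higher in adults (2% to 8.67%), beside 1.54% to 5.25%.

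The members' median level was higher in L1 than in eggs by 3.52, and by 4.74 with a pseudocount of 0.1, 3.74 after median-of-ratios scaling and 1.03 percentage points as a share of TPM. The L3 minus L1 value of -0.29 turned to 0.10 after scaling and to 0.42 percentage points as a share. Female hindgut 5 minus its replicates, -0.45, turned to 0.018 after scaling and was -0.31 percentage points as a share, and yellow fat body 4 minus the other L4 fat bodies, -0.49, was -0.11 percentage points. The cause of these changes was not tested.

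With the replicate block, 121 members were higher in L1 (79.1%) and 8 in eggs (5.23%), beside 17.5% and 49.1% of all genes. In L3 against L1, 28 were higher in L3 (18.3%) and 31 in L1 (20.3%), beside 6.97% and 30.8%. In hindgut, 35 were higher in L4 (23.3%) and 7 in adults (4.67%), beside 2.61% and 2.46%. The replicate numbers share no source in the labels. No paired analysis was possible because the female and male tubules share only 1 replicate number. The rule gave 135 to 172 members over its alternatives. Of 584 values of 37 single-gene differences, 500 kept their call, 84 kept the direction but missed the threshold and 0 reversed. Some genes stand in more than 1 of these differences. Values near 0 rest on few read pairs, and 3 libraries per group limit every test.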
